A study of Mus musculus with 4 samples.

Results

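The 10 genes Bmp2, Bmp4, Bmp6, Bmpr1a, Bmpr2, Smad6, Smad7, Id1, Id2 and Id3 cover bone morphogenetic protein (BMP) signalling from its ligands to its common target genes. They were chosen by name, as the rows of the feature list that carry these symbols, and all 10 of 10 were found among 32287 features. Their unique molecular identifiers (UMIs, each standing for 1 captured RNA molecule) were summed over the cells of each cell class in each of 4 single-cell libraries of mouse heart.

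The hearts were taken 3 days after myocardial infarction, in which part of the heart muscle loses its blood supply, or without injury. After infarction there was 1 library from Tcf21-MerCreMer:flox mice and 1 from Tcf21-MerCreMer mice, and without injury there was 1 library of each genotype as well. All 4 groups carried Tcf21-MerCreMer, a Cre recombinase placed at Tcf21 that tamoxifen switches on, and all 4 received tamoxifen, so the control hearts carried the Cre as well. The flox groups carried a floxed allele in addition and are called deletion-labelled here. The labels name neither the floxed part of Tcf21 nor the number of animals behind a library. Live nucleated cells sorted from digested tissue were captured with a droplet kit that reads the 3′ ends of transcripts.

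BMP ligands bind pairs of type I and type II receptors on the cell surface, and the receptors then activate SMAD transcription factors inside the cell. Id1, Id2 and Id3 are widely used readouts of this activity, and their proteins bind E proteins and keep them from DNA. Smad6 and Smad7 are switched on by the same pathway and hold it back, with Smad7 also acting on TGF-beta signalling. In the heart, BMP signals take part in valve and vessel development, and Bmpr2 is known for its part in the health of vessel lining.

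Depth ranged from 55710468 UMIs in the control library without injury to 129704045 in the control library after infarction, over 9149 to 11541 barcodes. After filters on cells and removal of likely doublets, 8304 to 10175 cells were kept per library, with medians of 4269 to 5721 UMIs, and pairs of libraries shared 19 to 41 cell barcodes. Clustering gave 37 clusters, of which 34 were named in 12 classes from marker genes and 3 stayed unnamed, with 1.89% to 4.22% of the cells of a library. The class names mean fibroblast-like, endothelial-like and so on, and a class sum was used where it held at least 50 cells. Levels are given as CPM, the UMIs of a gene scaled to a common total for each class sum, with an exact Poisson 95% interval where 1 is printed. Log2 ratios carry exact Clopper-Pearson 95% intervals, given in parentheses after the ratio. With 1 library per group there is no replicate spread and no test, and all intervals cover counting error only.

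Tcf21, the targeted gene and a transcription factor of heart fibroblasts, stood at 32.4 CPM in deletion-labelled and 22.3 CPM in control fibroblasts after infarction, and at 146 CPM in deletion-labelled and 95.8 CPM in control fibroblasts without injury. It was thus higher in the library labelled as deleted in both settings, by a log2 ratio of 0.54 (0.40 to 0.68) after infarction and 0.61 (0.53 to 0.69) without injury. UMIs here are 3′ tags, and a tag outside a floxed part does not check a deletion. Every genotype direction below therefore rests on the library labels.

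Promoter sequence was taken from RefSeq on GRCm38.p6, the build that mm10 names, as the 250 bases before and 50 bases after the start of a gene. The table matched 7 of the 10 genes. Smad6 and Bmp4 are shown, Smad6 because it holds the palindromic SMAD-binding letters and Bmp4 because it had the widest infarction difference of the 10 in fibroblasts. The Smad6 stretch lies at chr9:64022056-64022309 on the minus strand, and its capitals mark GTCTAGAC, which begins 4 bases before the start. The Bmp4 stretch lies at chr14:46390670-46390919 on the minus strand, and its capitals mark 3 matches to CANNTG, the E-box letters that basic helix-loop-helix factors such as Tcf21 can bind.
Smad6: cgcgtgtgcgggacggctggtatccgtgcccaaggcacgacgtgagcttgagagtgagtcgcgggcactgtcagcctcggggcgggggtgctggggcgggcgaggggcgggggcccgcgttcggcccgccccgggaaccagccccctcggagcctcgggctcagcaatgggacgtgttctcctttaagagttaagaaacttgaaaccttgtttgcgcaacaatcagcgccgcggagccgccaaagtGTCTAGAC
Bmp4: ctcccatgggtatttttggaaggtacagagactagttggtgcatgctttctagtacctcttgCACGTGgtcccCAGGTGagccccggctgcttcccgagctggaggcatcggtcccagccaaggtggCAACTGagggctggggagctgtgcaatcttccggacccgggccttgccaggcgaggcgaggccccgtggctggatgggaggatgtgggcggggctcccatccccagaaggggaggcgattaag
GTCTAGAC was found in 70 of 32851 mouse promoters of this length, or 0.213%, read on both strands, and among the 7 matched genes in Smad6 alone. GGCGCC, the GC-rich SMAD letters, was found in 11.9% of promoters and in those of Bmpr1a, Bmpr2 and Id2. CANNTG was found in 72.3% of promoters and in 4 of the 7, those of Bmp4, Bmp6, Id2 and Smad6. A match is a run of letters only, and no binding was measured here.

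Among the ligands, Bmp4 (chr14:46383520-46390669, minus strand) stood highest in fibroblasts without injury and in endothelial cells after infarction. In fibroblasts it reached 36.6 CPM (34.6 to 38.7) in the deletion-labelled and 13.5 CPM (12.3 to 14.9) in the control library after infarction, and 235 CPM (229 to 240) in the deletion-labelled and 183 CPM (177 to 189) in the control library without injury. In endothelial cells it reached 50.7 CPM in the deletion-labelled and 69.9 CPM in the control library after infarction, and 23.7 CPM in the deletion-labelled and 25.7 CPM in the control library without injury. The order of these 2 classes was thus turned round between injured and uninjured hearts in both genotypes, with intervals apart each time. After thinning each cell to 2000 UMIs, Bmp4 was found in 9.99% of deletion-labelled and 3.96% of control fibroblasts after infarction, and in 33.3% of deletion-labelled and 30.1% of control fibroblasts without injury. Without thinning these shares were 38.5% in deletion-labelled and 25.3% in control fibroblasts after infarction, and 82.0% in deletion-labelled and 71.9% in control fibroblasts without injury. B cells, which should lack Bmp4, gave 0 of 433 cells in the deletion-labelled and 0 of 432 cells in the control library after infarction, which allows up to 0.848% and 0.850%, and 0.662% in the deletion-labelled and 0.826% in the control library without injury. The median depth was 13472 UMIs in deletion-labelled fibroblasts and 4099 UMIs in deletion-labelled B cells without injury.

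Bmp2 (chr2:133552159-133562885, plus strand) had different leading classes in injured and uninjured hearts. After infarction it stood highest in endothelial cells, at 68.4 CPM (61.0 to 76.4) in the deletion-labelled and 102 CPM (90.0 to 115) in the control library. Without injury the same class held 1.13 CPM in the deletion-labelled and 2.72 CPM in the control library, from 39 and 53 UMIs. Without injury, fibroblasts and mononuclear phagocytes held the most. Fibroblasts stood at 38.1 CPM in the deletion-labelled and 28.3 CPM in the control library, and phagocytes at 32.0 CPM in the deletion-labelled and 42.8 CPM in the control library, with overlapping intervals in the deletion-labelled heart and intervals apart in the control heart. B cells held 0 to 2 Bmp2 UMIs per library.

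Bmp6 (chr13:38345107-38500302, plus strand), a ligand known in the liver for control of iron balance, stood highest in endothelial cells in all 4 libraries. It reached 41.0 CPM in the deletion-labelled and 25.4 CPM in the control endothelial sum after infarction, and 69.5 CPM in the deletion-labelled and 95.4 CPM in the control sum without injury. Fibroblasts came second, at 16.1 CPM in the deletion-labelled and 8.51 CPM in the control library after infarction, and 49.9 CPM in the deletion-labelled and 56.1 CPM in the control library without injury. The small endocardial-like cluster, led by H19 and Npr3 and made of 80 cells over all libraries, held 349 CPM, the highest of all 37 clusters.

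Of the receptors, the type I receptor Bmpr1a (chr14:34410734-34503341, minus strand) was mainly a gene of mural cells and fibroblasts. Mural cells, the pericytes and smooth muscle around vessels, held 78.0 CPM in the deletion-labelled and 72.3 CPM in the control library after infarction, and 105 CPM in the deletion-labelled and 111 CPM in the control library without injury. Fibroblasts held 61.2 CPM in the deletion-labelled and 52.5 CPM in the control library after infarction, and 96.7 CPM in the deletion-labelled and 107 CPM in the control library without injury. The intervals of these 2 classes overlapped without injury and were apart after infarction. Endothelial cells held 13.9 CPM in the deletion-labelled and 3.74 CPM in the control library after infarction, and 2.96 CPM in the deletion-labelled and 4.67 CPM in the control library without injury. The exception within that class was the endocardial-like cluster, with 139 CPM over its 80 cells.

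The type II receptor Bmpr2 (chr1:59763400-59879014, plus strand) stood highest in endothelial cells in every library. They held 191 CPM in the deletion-labelled and 133 CPM in the control library after infarction, and 258 CPM in the deletion-labelled and 341 CPM in the control library without injury. Mural cells followed at 127 to 247 CPM and fibroblasts at 79.0 to 215 CPM. The intervals of endothelial and mural cells overlapped only in the control library after infarction, and those of mural cells and fibroblasts overlapped in both libraries without injury. T and NK cells and B cells held 0.606 to 26.4 CPM.

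Of the inhibitory SMADs, Smad6 (chr9:63953076-64022059, minus strand) was led by endothelial cells, at 21.6 CPM in the deletion-labelled and 11.6 CPM in the control library after infarction, and 33.9 CPM in the deletion-labelled and 38.6 CPM in the control library without injury. Fibroblasts held 6.37 CPM in the deletion-labelled and 10.2 CPM in the control library after infarction, and 5.04 CPM in the deletion-labelled and 4.58 CPM in the control library without injury. The intervals of these 2 classes overlapped in the control library after infarction and were apart in the other 3. T and NK cells held 0 Smad6 UMIs in all 4 libraries, which allows at most 2.11 CPM in the deletion-labelled and 2.57 CPM in the control library after infarction, and 7.79 CPM in the deletion-labelled and 6.47 CPM in the control library without injury. Smad7 (chr18:75367529-75395935, plus strand) had another pattern, with high levels in lymphocytes. T and NK cells held 260 CPM in the deletion-labelled and 257 CPM in the control library after infarction, and 226 CPM in the deletion-labelled and 216 CPM in the control library without injury. B cells held 154 to 258 CPM, and endothelial cells 123 CPM in the deletion-labelled and 78.1 CPM in the control library after infarction, and 186 CPM in the deletion-labelled and 222 CPM in the control library without injury.

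The 3 Id genes differed in where they were found. Id1 (chr2:152736251-152737410, plus strand) stood highest in endothelial cells in every library, at 525 CPM (504 to 546) in the deletion-labelled and 273 CPM (254 to 294) in the control library after infarction, and 962 CPM (951 to 972) in the deletion-labelled and 758 CPM (746 to 770) in the control library without injury. Neutrophils came second after infarction, at 277 CPM in the deletion-labelled and 205 CPM in the control library. Fibroblasts held 47.3 CPM in the deletion-labelled and 51.8 CPM in the control library after infarction, and 47.7 CPM in the deletion-labelled and 25.8 CPM in the control library without injury. The control fibroblasts without injury stood below the other 3 libraries.

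Id3 (chr4:136143497-136145755, plus strand) was spread over all 3 structural classes. Mural cells held 1273 CPM in the deletion-labelled and 1627 CPM in the control library after infarction, and 694 CPM in the deletion-labelled and 532 CPM in the control library without injury. Endothelial cells held 678 CPM in the deletion-labelled and 421 CPM in the control library after infarction, and 1109 CPM in the deletion-labelled and 966 CPM in the control library without injury. Fibroblasts held 563 CPM in the deletion-labelled and 821 CPM in the control library after infarction, and 506 CPM in the deletion-labelled and 299 CPM in the control library without injury. The ratio of Id3 to Id1 UMIs differed between endothelial cells and fibroblasts. It was 1.29 in deletion-labelled and 1.54 in control endothelial cells after infarction, and 1.15 in deletion-labelled and 1.27 in control endothelial cells without injury. In fibroblasts it was 11.9 in the deletion-labelled and 15.9 in the control library after infarction, and 10.6 in the deletion-labelled and 11.6 in the control library without injury.

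Id2 (chr12:25093799-25097140, minus strand), known in other work for its part in lymphoid and dendritic cell development, was led by blood cells. T and NK cells held 496 CPM in the deletion-labelled and 409 CPM in the control library after infarction, and 513 CPM in the deletion-labelled and 398 CPM in the control library without injury. Dendritic cells held 402 CPM in the deletion-labelled and 418 CPM in the control library after infarction. The cluster led by Ccl5, Gzma and Nkg7, genes of cytotoxic lymphocytes, held 716 CPM, the highest of all 37 clusters. Endothelial cells stayed between 52.4 and 62.8 CPM in the 4 libraries.

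Infarction was set against no injury within each genotype, over sums with at least 50 UMIs between them, and a gene was counted as different from a CPM ratio of 1.5. In fibroblasts the 3 ligands and both receptors were lower after infarction in both genotypes, while Smad7 was higher in both and Id1, Id3 and Smad6 were higher past the limit in control fibroblasts only, a contrast between the pairs that was not tested. All 10 genes passed the UMI minimum. In deletion-labelled fibroblasts 1 was higher and 5 were lower, where 50.4% of 13184 genes passed 1.5-fold either way, 18.8% higher and 31.6% lower. In control fibroblasts 4 were higher and 5 were lower, where 63.3% of 12779 genes did, 23.8% higher and 39.4% lower. The shares among all genes are so large that the counts by themselves say little. The median log2 ratio of the 10 genes was -0.49 in deletion-labelled and -0.44 in control fibroblasts, and that of all genes -0.21 in deletion-labelled and -0.29 in control fibroblasts.

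Bmp4 had the widest difference, with a log2 ratio of -2.68 (-2.77 to -2.59) in deletion-labelled and -3.76 (-3.90 to -3.61) in control fibroblasts, which makes it 6.41-fold lower in the deletion-labelled and 13.5-fold lower in the control library after infarction. Bmp2 followed at -2.23 (-2.42 to -2.04) in deletion-labelled and -2.92 (-3.21 to -2.63) in control fibroblasts, and Bmp6 at -1.63 (-1.77 to -1.49) in deletion-labelled and -2.72 (-2.92 to -2.53) in control fibroblasts. The ligand differences were smaller in the deletion-labelled pair for all 3. After infarction, Bmp2 in control fibroblasts stood at 0.037 of the level of the highest class, where stray RNA from other cells may add. The part of such RNA was not tested. For the receptors, Bmpr1a gave -0.66 in deletion-labelled and -1.03 in control fibroblasts, and Bmpr2 -0.61 in deletion-labelled and -1.45 in control fibroblasts. Smad7 was higher by nearly the same ratio in both genotypes, 0.75 (0.66 to 0.84) in deletion-labelled and 0.72 (0.63 to 0.81) in control fibroblasts.

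Id1, Id3 and Smad6 had these values. Id3 gave 0.15 (0.12 to 0.18) in deletion-labelled and 1.46 (1.416 to 1.497) in control fibroblasts. Id1 gave -0.01 (-0.12 to 0.09) in deletion-labelled and 1.01 (0.86 to 1.15) in control fibroblasts. Smad6 gave 0.34 (0.02 to 0.65) in deletion-labelled and 1.15 (0.816 to 1.502) in control fibroblasts, from 93 to 321 UMIs a library. So these 3 genes passed 1.5-fold in the control pair and stayed within it in the deletion-labelled pair. The 2 pairs share no library. Dissociation and acute stress genes, 18 of 18 found, summed to 7830 CPM in deletion-labelled and 6322 CPM in control fibroblasts after infarction, and to 13859 CPM in deletion-labelled and 11865 CPM in control fibroblasts without injury, and their part was not tested. Mural markers summed to 1352 CPM in deletion-labelled and 1905 CPM in control fibroblasts after infarction, and to 278 CPM in deletion-labelled and 243 CPM in control fibroblasts without injury, with all 12 found except Cnn1 in the control library without injury, and their part was not tested. The uninjured control library, where Id1 and Id3 were lowest, stands under the control ratio.

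**Figure D1:**
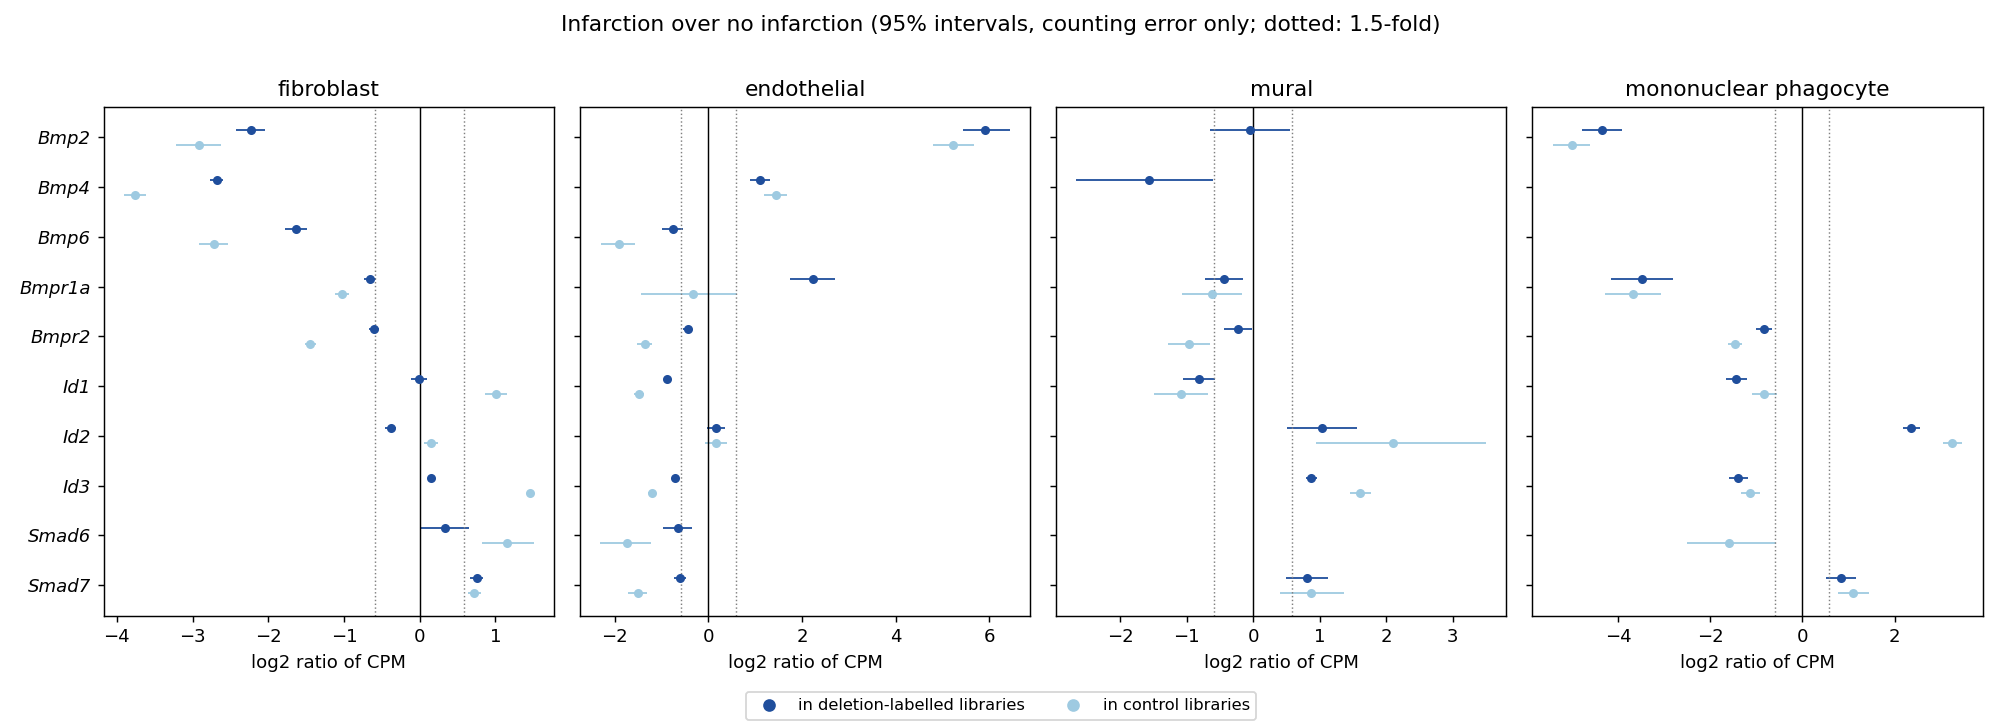
Log2 ratio of CPM after infarction over no injury for the 10 genes, by cell class and genotype, with exact Clopper-Pearson 95% intervals and lines at 1.5-fold. In fibroblasts the 3 ligands lie far below 0 in both genotypes, and Id1 and Id3 lie near 0 in the deletion-labelled and above 1 in the control pair.

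The fibroblast clusters differed in these genes and in their share of each library. The cluster led by Cthrc1, Timp1 and Lox, genes of matrix-forming fibroblasts, held 714 of 1468 deletion-labelled and 774 of 973 control fibroblasts after infarction, and 2 of 1961 deletion-labelled and 4 of 1873 control fibroblasts without injury. Its Bmp4 level was 13.8 CPM in the deletion-labelled and 11.7 CPM in the control library after infarction. The interstitial-type cluster, led by Smoc2 and Crispld2, held 199 deletion-labelled and 7 control cells after infarction, and 1306 deletion-labelled and 1179 control cells without injury. Its Bmp4 level was 138.5 CPM in the deletion-labelled library after infarction, and 296 CPM in the deletion-labelled and 236 CPM in the control library without injury. Bmp4 was thus lower after infarction within this cluster, by a log2 ratio of -1.10 against -2.68 over all deletion-labelled fibroblasts. The makeup of the class moved with infarction together with the level inside a cluster, and the part of each in the class ratio was not tested.

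Within clusters that held at least 20 cells in both deletion-labelled libraries, Id1 was lower after infarction. As a class, whose makeup moved with infarction, fibroblasts gave -0.01 for Id1 in the deletion-labelled and 1.01 in the control pair. In the deletion-labelled interstitial-type cluster Id1 stood at 14.0 CPM after infarction against 52.4 CPM without injury, a log2 ratio of -1.90. In the adventitial-type cluster, led by Myoc, Sema3c and Pi16, Id1 stood at 17.7 CPM after infarction against 33.04 CPM without injury. In the cluster led by Cilp, Thbs4 and Comp, which had the most activated-fibroblast markers, it stood at 32.6 CPM after infarction against 58.1 CPM without injury. Id3 was lower as well in these 3 deletion-labelled clusters, with log2 ratios of -0.83, -0.40 and -0.23 in the same order. The Cilp cluster alone could be followed in the control hearts, with 37 cells after infarction and 131 without injury, and there Id3 stood at 574 CPM after infarction against 301 CPM without injury.

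In endothelial cells, the ligands Bmp2 and Bmp4 were higher after infarction, and Bmp6, Id1, Id3, Smad6 and Smad7 were lower, in both genotypes. Bmp2 was 60.4-fold higher in the deletion-labelled pair, a log2 ratio of 5.92 (5.43 to 6.44), and 37.4-fold higher in the control pair, a log2 ratio of 5.23 (4.80 to 5.68). Its uninjured endothelial level was 0.030 of the highest class in the deletion-labelled and 0.064 in the control library. At such levels stray RNA from other cells may add, and its part was not tested. Bmp4 was 2.14-fold higher in the deletion-labelled and 2.72-fold higher in the control pair. All 10 genes passed the UMI minimum, and 3 were higher and 5 lower in the deletion-labelled pair, where 41.5% of all genes passed 1.5-fold, 19.1% higher and 22.5% lower. In the control pair 2 were higher and 6 lower, where 58.5% of all genes passed, 24.6% higher and 33.9% lower. The median log2 ratio of the 10 was -0.52 in the deletion-labelled and -1.28 in the control pair, against -0.06 in the deletion-labelled and -0.15 in the control pair over all genes. The log2 ratio of Id1 was -0.87 (-0.93 to -0.81) in the deletion-labelled and -1.47 (-1.58 to -1.36) in the control pair, and that of Id3 -0.71 (-0.76 to -0.66) in the deletion-labelled and -1.20 (-1.29 to -1.11) in the control pair. Smad6 gave -0.65 in the deletion-labelled and -1.74 in the control pair, and Smad7 gave -0.59 in the deletion-labelled and -1.51 in the control pair. Bmp6 gave -0.76 in the deletion-labelled and -1.91 in the control pair. Id2 was within 1.5-fold, at 0.17 in both.

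Endothelial cells were few after infarction, 583 in the deletion-labelled and 251 in the control library, against 6329 in the deletion-labelled and 4927 in the control library without injury, and their makeup was another. The cluster led by Apln and Pgf, genes of growing vessels, with cycling genes such as Mki67 and Top2a among those that set it apart within the class, held 264 of the 583 deletion-labelled and 206 of the 251 control cells after infarction, and 36 deletion-labelled and 26 control cells without injury. It held 305 of the 310 deletion-labelled and 261 of the 272 control endothelial Bmp2 UMIs after infarction, at 104 CPM in the deletion-labelled and 113 CPM in the control library. Without injury the same cluster held 10 Bmp2 UMIs in the deletion-labelled and 1 in the control library. After thinning to 2000 UMIs, Bmp2 was found in 4.54% of 507 deletion-labelled and 12.1% of 214 control endothelial cells after infarction, against 0.207% of 5810 deletion-labelled and 0.426% of 4455 control endothelial cells without injury, with intervals far apart. Before thinning it was found in 9.78% of deletion-labelled and 27.5% of control cells after infarction, and in 0.363% of deletion-labelled and 0.690% of control cells without injury. B cells after infarction gave 0% of 433 deletion-labelled and 0.463% of 432 control cells, with a median of 2694.5 UMIs in deletion-labelled B cells and 4967 UMIs in deletion-labelled endothelial cells.

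The target genes were low in the Apln cluster in injured and uninjured hearts alike. Id1 there stood at 374 CPM in the deletion-labelled and 245 CPM in the control library after infarction, and at 280 CPM in the deletion-labelled and 376 CPM in the control library without injury. The arterial-like cluster, led by Stmn2, Rbp7 and Sema3g, held the most Id1, Id3, Smad6 and Smad7 of the endothelial clusters, at 1288, 1404, 88.0 and 304 CPM over all libraries. In the largest cluster, led by Aqp1, Timp4 and Car4, which held 83 deletion-labelled cells after infarction and 2010 without injury, the ratios ran the other way from the class. Id1 gave 0.19, Id3 0.51, Smad6 0.78 and Smad7 0.28 there, after infarction over no injury, and the counting interval was clear of 0 for Id3 alone, with 9 Smad6 UMIs after infarction. In the arterial-like cluster, with 92 deletion-labelled cells after infarction and 1535 without injury, Id1 gave -0.23, Id3 -0.09, Smad6 0.10 and Smad7 0.17. Of these ratios in the deletion-labelled pair, that of Id1 in the arterial-like cluster alone was below 0 with its whole interval, and it lay nearer 0 than the class value of -0.87, and the control library had under 20 cells of each after infarction.

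Markers of other cells moved with the endothelial sums as well. The 4 haemoglobin genes summed to 3173 CPM in the deletion-labelled and 1.87 CPM in the control library after infarction, and to 283 CPM in the deletion-labelled and 55.6 CPM in the control library without injury. All 10 neutrophil markers were found, and their sum was 785 CPM in the deletion-labelled and 701 CPM in the control library after infarction, against 48.4 CPM in the deletion-labelled and 27.6 CPM in the control library without injury. Cardiomyocyte markers summed to 85.6 CPM in the deletion-labelled and 38.9 CPM in the control library after infarction, and to 475 CPM in the deletion-labelled and 401 CPM in the control library without injury, with all 10 found except Myh6 and Ryr2 in the control library after infarction. An endothelial cluster of 2248 cells over all libraries mixed Aqp1 and Fabp4 with the heart muscle genes Myl2 and Ttn among its leading genes. The 18 genes known to respond to tissue dissociation and other acute stress, all found, summed to 6523 CPM in the deletion-labelled and 3870 CPM in the control library after infarction, and to 10664 CPM in the deletion-labelled and 8059 CPM in the control library without injury. Their part in the results was not tested.

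In mural cells, Id3 was higher after infarction while Id1 was lower. The log2 ratio of Id3 was 0.87 (0.79 to 0.96) in the deletion-labelled and 1.61 (1.46 to 1.77) in the control pair, and that of Id1 was -0.81 (-1.05 to -0.57) in the deletion-labelled and -1.08 (-1.48 to -0.68) in the control pair. The Id3 to Id1 ratio reached 12.9 in the deletion-labelled and 21.1 in the control library after infarction, against 4.03 in the deletion-labelled and 3.25 in the control library without injury. Smad7 was higher in both pairs, by 0.81 in the deletion-labelled and 0.88 in the control pair. Of 8 genes past the UMI minimum in the deletion-labelled pair, 3 were higher and 2 lower, where 42.1% of all genes passed 1.5-fold, 15.9% higher and 26.2% lower. Of 6 in the control pair, 3 were higher and 3 lower, where 57.7% passed, 24.9% higher and 32.8% lower. By cluster, the Id3 difference was widest in the mural cluster led by Des, Higd1b and Myl9 and set apart within the class by Ccl2, Spp1 and Timp1, at 1422 CPM in the deletion-labelled and 1603 CPM in the control library after infarction against 340 CPM in the deletion-labelled and 145 CPM in the control library without injury. In deletion-labelled pericytes Id3 stood at 816 CPM after infarction against 596 CPM without injury, and in deletion-labelled smooth muscle at 927 CPM after infarction against 938 CPM without injury. Fibroblast markers in mural sums were 4782 CPM in the deletion-labelled and 4499 CPM in the control library after infarction, and 2175 CPM in the deletion-labelled and 3083 CPM in the control library without injury. The 4 haemoglobin genes summed to 27.2 CPM in the deletion-labelled and 5287 CPM in the control library after infarction, and to 83.2 CPM in the deletion-labelled and 22.6 CPM in the control library without injury. Phagocyte markers summed to 386 CPM in the deletion-labelled and 1222 CPM in the control library after infarction, and to 189 CPM in the deletion-labelled and 243 CPM in the control library without injury. The part of these in the mural results was not tested.

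In mononuclear phagocytes, the monocytes and macrophages, Id2 was higher after infarction and Bmp2 lower. Id2 stood at 249 CPM in the deletion-labelled and 384 CPM in the control library after infarction, against 48.5 CPM in the deletion-labelled and 40.2 CPM in the control library without injury. That is 5.14-fold higher in the deletion-labelled and 9.57-fold higher in the control pair. Bmp2 stood at 1.57 CPM in the deletion-labelled and 1.33 CPM in the control library after infarction, against 32.0 CPM in the deletion-labelled and 42.8 CPM in the control library without injury. The levels after infarction were 0.023 of the highest class in the deletion-labelled and 0.013 in the control library. Stray RNA from other cells may add there, and its part was not tested. Unnamed cells, which the class leaves out, held 14.5 CPM of Bmp2 in the deletion-labelled and 25.2 CPM in the control library after infarction. These were 71 and 141 UMIs, against 67 and 68 in the phagocyte class. Among them was a cluster of 474 cells that scored best for phagocyte markers, with 21.5 CPM over all libraries. In the deletion-labelled pair 7 genes passed the UMI minimum, with 2 higher and 5 lower, where 51.2% of all genes passed 1.5-fold, 20.4% higher and 30.8% lower. In the control pair 8 did, with 2 higher and 6 lower, where 60.4% passed, 21.4% higher and 38.9% lower.

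The phagocyte clusters of the 2 settings were nearly separate, so these ratios set different cells side by side. The 18 dissociation genes summed to 8227 CPM in the deletion-labelled and 6696 CPM in the control library after infarction, and to 28727 CPM in the deletion-labelled and 28307 CPM in the control library without injury, and their part was not tested. The resident-macrophage-like cluster, led by Hpgd, Lyve1 and Mgl2, held 350 deletion-labelled and 531 control cells without injury, and its Bmp2 level was 35.0 CPM in the deletion-labelled and 44.8 CPM in the control library. The infarct-macrophage-like cluster, led by Gpnmb, Syngr1 and Spp1, held 931 deletion-labelled and 1194 control cells after infarction, with 2.52 CPM of Bmp2 in the deletion-labelled and 1.66 CPM in the control library. Id2 was 246 CPM in the deletion-labelled and 375 CPM in the control library in the infarct-macrophage-like cluster, and 252 CPM in the deletion-labelled and 438 CPM in the control library in the monocyte-like cluster led by Chil3 and Ms4a4c. In the resident-macrophage-like cluster without injury Id2 was 41.0 CPM in the deletion-labelled and 27.9 CPM in the control library.

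Deletion-labelled hearts were next set against control hearts within each setting, which is the comparison of the study's genotypes. Without injury, 2 of the 10 genes passed 1.5-fold in fibroblasts, both higher, where 11.2% of 12506 genes passed either way, 6.03% higher and 5.2% lower. The median log2 ratio was 0.25 over the 10 and -0.03 over all genes. They were Id1, at 47.7 CPM in the deletion-labelled and 25.8 CPM in the control library, a log2 ratio of 0.89 (0.74 to 1.04), and Id3, at 506 CPM in the deletion-labelled and 299 CPM in the control library, a log2 ratio of 0.76 (0.71 to 0.80). Id2 lay just within the limit, at 108 CPM in the deletion-labelled and 72.3 CPM in the control library, a log2 ratio of 0.58 (0.49 to 0.68). The 3 Id genes were thus all higher in the deletion-labelled library. In fibroblasts all 3 intervals were clear of 0, which held in no other class compared. Without injury, Id3 was higher in the other classes too. It gave 0.28 (0.01 to 0.54) in phagocytes, 0.20 (0.17 to 0.22) in endothelial cells and 0.38 (0.23 to 0.54) in mural cells. Id1 gave 0.69 (0.375 to 0.9998) in phagocytes and 0.34 (0.32 to 0.37) in endothelial cells, but 0.08 (-0.20 to 0.36) in mural cells. Id2 gave 0.27 (-0.01 to 0.55) in phagocytes and -0.09 (-0.20 to 0.02) in endothelial cells. In mural cells Id2 gave 1.06 (-0.08 to 2.43), from 57 deletion-labelled and 7 control UMIs. Endothelial markers in the same fibroblast sums, 12 of 12 found, were 495 CPM in the deletion-labelled and 334 CPM in the control library, and the 4 haemoglobin genes 96.2 CPM in the deletion-labelled and 11.3 CPM in the control library, and their part was not tested. Bmp4 and Bmp2 were a little higher too, at 0.36 (0.30 to 0.42) and 0.43 (0.28 to 0.58), while Bmpr2 and Smad7 were lower, at -0.40 (-0.46 to -0.34) and -0.42 (-0.52 to -0.31).

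The same directions were found within the fibroblast clusters without injury. Id1 gave 0.86 in the interstitial-type, 0.98 in the adventitial-type and 0.56 in the Cilp cluster, and Id3 gave 0.76, 0.65 and 0.59 in the same order. Id2 gave 0.55, 0.49 and 0.72. Smad7 gave -0.40, -0.62 and -0.35, and Bmpr2 gave -0.43, -0.35 and -0.40. The cell shares were alike, with 1306 of 1961 deletion-labelled and 1179 of 1873 control fibroblasts in the interstitial-type cluster. Of the 18 dissociation genes, 2 were higher and 2 lower past 1.5-fold in this comparison, with a sum of 13859 CPM in the deletion-labelled and 11865 CPM in the control library, and their part was not tested.

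After infarction, fibroblasts showed other genes apart. Of the 10, 3 were higher and 1 lower past 1.5-fold, where 12.6% of 12942 genes passed either way, 9.8% higher and 2.77% lower. The median log2 ratio was 0.14 over the 10 and 0.04 over all genes. The 3 ligands were the higher ones, with log2 ratios of 1.44 (1.28 to 1.60) for Bmp4, 1.12 (0.80 to 1.44) for Bmp2 and 0.92 (0.71 to 1.14) for Bmp6. Bmp2 in control fibroblasts stood at 0.037 of the level of the highest class. At such levels stray RNA from other cells may add, and its part was not tested. Smad6 was lower, at 6.37 CPM in the deletion-labelled and 10.2 CPM in the control library, a log2 ratio of -0.68 (-0.93 to -0.43). Id3, at 563 CPM in the deletion-labelled and 821 CPM in the control library, was lower by -0.55 (-0.57 to -0.52), just within the limit and the other way from the hearts without injury. Id1 gave -0.13 (-0.23 to -0.03) and Id2 gave 0.06 (-0.02 to 0.13).

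The makeup of the class differed between the 2 libraries after infarction, and its part in the ligand differences was not tested. In the Cthrc1 cluster alone, the largest one, none of the 10 genes passed 1.5-fold, and Bmp4 gave 0.24, Bmp2 0.34 and Bmp6 0.16. Id3 gave -0.41 there, at 651 CPM in the deletion-labelled and 863 CPM in the control library, and Smad6 -0.49. Id1 gave 0.01 (-0.10 to 0.13) in the same cluster. That cluster held 714 of 1468 deletion-labelled and 774 of 973 control fibroblasts. The adventitial-type cluster held 134 deletion-labelled and 0 control cells after infarction, the interstitial-type cluster 199 deletion-labelled and 7 control cells, and the Cilp cluster 277 deletion-labelled and 37 control cells. In the Cilp cluster Bmp4 stood at 92.2 CPM in the deletion-labelled and 53.8 CPM in the control library, and Id3 at 386 CPM in the deletion-labelled and 574 CPM in the control library. The cluster led by Mt2 and Tnfrsf12a, with 144 deletion-labelled and 155 control cells, had 39.4 CPM of Bmp2 in the deletion-labelled and 16.0 CPM in the control library. Mural markers, which activated fibroblasts share in part, summed to 1352 CPM in the deletion-labelled and 1905 CPM in the control fibroblasts after infarction, with all 12 found, and their part was not tested. The 4 haemoglobin genes summed to 229 CPM in the deletion-labelled and 0.793 CPM in the control fibroblasts after infarction. Of the 18 dissociation genes, 4 were higher and 0 lower past 1.5-fold. Their median log2 ratio was 0.38, against 0.04 over all genes. The part of both gene sets was not tested.

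**Figure D2:**
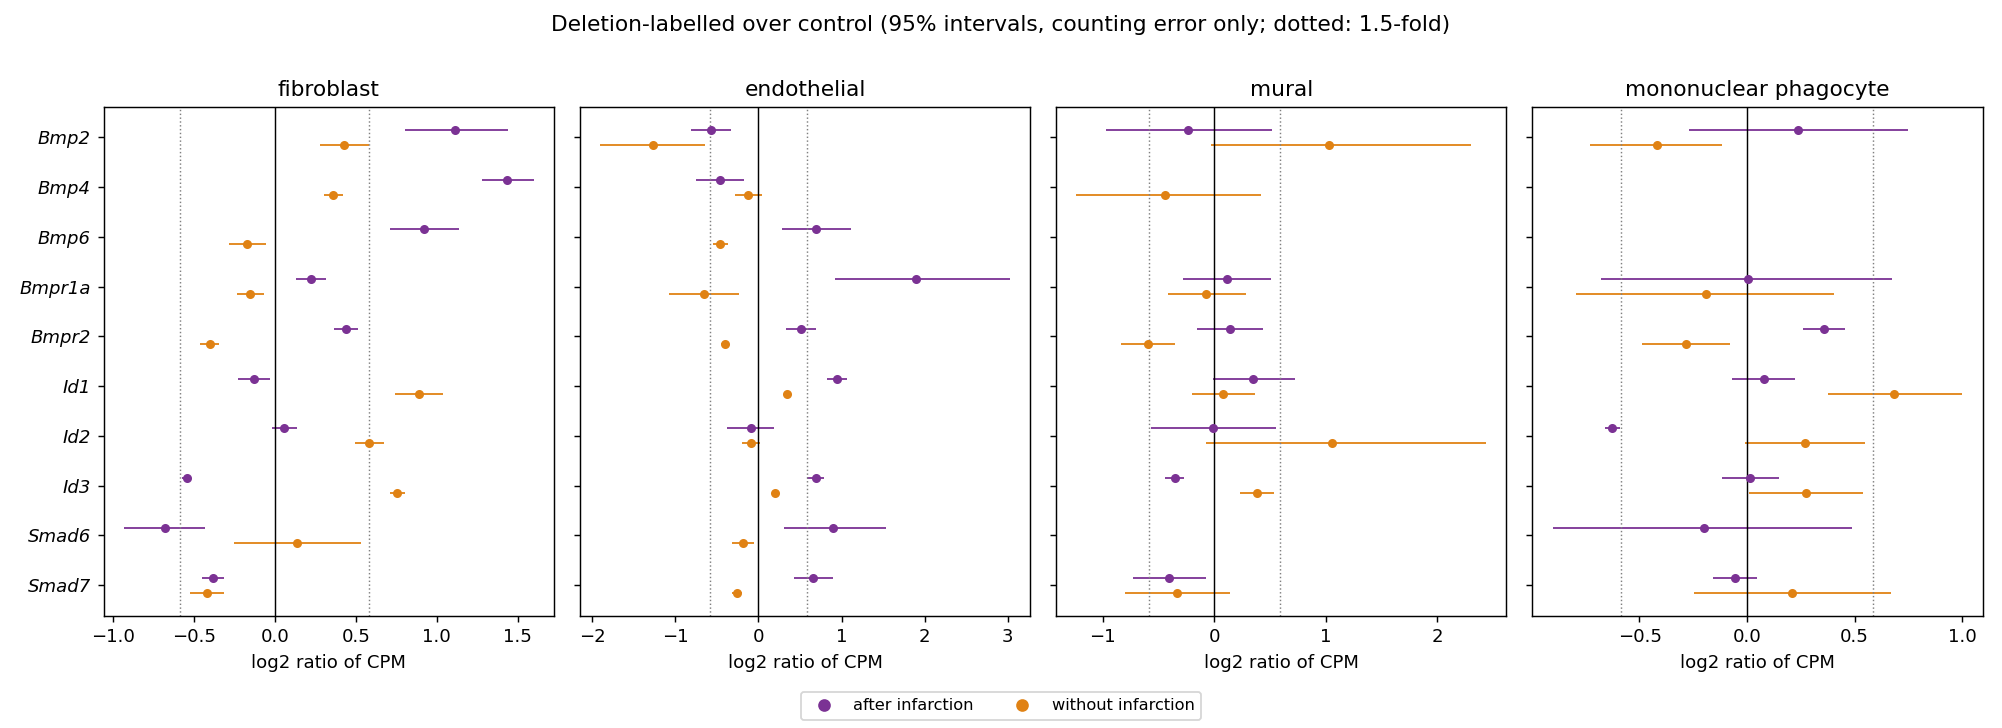
Log2 ratio of CPM in the deletion-labelled over the control library for the 10 genes, by cell class, after infarction and without injury, with exact Clopper-Pearson 95% intervals and lines at 1.5-fold. In fibroblasts Id1 and Id3 lie above 0 without injury and below 0 after infarction, and in endothelial cells 6 of the 10 genes lie past 1.5-fold after infarction.

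In endothelial cells after infarction, 6 of the 10 genes were higher past 1.5-fold and none lower, where 12.5% of 9404 genes passed either way, 9.91% higher and 2.57% lower. Over the 10 the median log2 ratio was 0.67, and over all genes it was 0.07. Id1 stood at 525 CPM in the deletion-labelled and 273 CPM in the control library, a log2 ratio of 0.94 (0.82 to 1.06). Smad6 gave 0.90 (0.30 to 1.53), Id3 0.69 (0.59 to 0.79), Bmp6 0.69 (0.28 to 1.11), Smad7 0.66 (0.43 to 0.89) and Bmpr1a 1.89 (0.92 to 3.02). The Bmp2 ratio ran the other way, at -0.57 (-0.81 to -0.33), within the limit. The makeup of the class moved with this result. The Apln cluster made up 264 of the 583 deletion-labelled and 206 of the 251 control cells, and within it Id1 was the only gene with at least 50 UMIs that passed 1.5-fold, at 374 CPM in the deletion-labelled and 245 CPM in the control library, a log2 ratio of 0.61 (0.46 to 0.76), while Id3 gave 0.33 and Smad7 0.27. Smad6, Bmp6 and Bmpr1a had 20, 28 and 8 deletion-labelled against 13, 15 and 2 control UMIs and were not compared there. The endocardial-like cluster held 29 deletion-labelled and 11 control cells, and the 29 cells gave 53 of the 63 Bmpr1a UMIs and 111 of the 186 Bmp6 UMIs of the deletion-labelled sum.

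Marker sums stood apart in the same comparison. The 4 haemoglobin genes Hbb-bs, Hbb-bt, Hba-a1 and Hba-a2 summed to 3173 CPM in the deletion-labelled endothelial cells, with all 4 found, and to 1.87 CPM in the control endothelial cells, with Hbb-bt and Hba-a2 at 0. The 8 lymphatic markers summed to 542 CPM in the deletion-labelled library, with all 8 found, and to 288 CPM in the control library, with Cldn11 at 0. Of the 18 dissociation genes, 13 were higher in the deletion-labelled library and none lower, with a median log2 ratio of 0.71 against 0.07 over all genes, and the widest were Hspa1a at 3.16 and Hspa1b at 2.19, both heat-shock genes. Their part in the result was not tested.

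Without injury, endothelial cells had 0 genes higher and 2 lower of 10, where 13.3% of 12593 genes passed either way, 7.06% higher and 6.2% lower. Over the 10 the median log2 ratio was -0.22, and over all genes it was 0.02. Bmp2 gave -1.26 (-1.90 to -0.64) from 39 deletion-labelled and 53 control UMIs, and Bmpr1a gave -0.66 (-1.08 to -0.23) from 102 deletion-labelled and 91 control UMIs, so both rest on few molecules. Both genes also stood below 0.1 of the level of the highest class in each library, where stray RNA from other cells may add. Its part was not tested. Id1 was higher within the limit, at 962 CPM in the deletion-labelled and 758 CPM in the control library, a log2 ratio of 0.34 (0.32 to 0.37). By cluster Id1 gave 0.30 in the Aqp1 and Timp4 cluster, 0.36 in the arterial-like and 0.79 in the venous-like cluster led by Vwf and Igfbp5. Of the 18 dissociation genes, 7 were higher and 2 lower past 1.5-fold in this comparison. Their median log2 ratio was 0.29, against 0.02 over all genes, and their part was not tested. Bmpr2 was lower, at -0.40 (-0.45 to -0.36), close to its ratio in fibroblasts, and in mural cells it gave -0.60 (-0.84 to -0.35), at 163 CPM in the deletion-labelled and 247 CPM in the control library.

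Other classes were compared on fewer genes. In mural cells without injury, 8 genes passed the UMI minimum, with Bmp2 at 1.03 (-0.03 to 2.30) and Id2 at 1.06 (-0.08 to 2.43) counted as higher and Bmpr2 as lower, where 24.4% of all genes passed 1.5-fold, 11.7% higher and 12.7% lower. After infarction 7 passed the minimum and none passed 1.5-fold, where 13.3% of all genes did, 8.63% higher and 4.69% lower. Of the 18 dissociation genes in mural cells, 6 were higher and 1 lower without injury, and 6 higher and 0 lower after infarction. They summed to 6467.5 CPM in the deletion-labelled and 4320 CPM in the control library without injury. After infarction the sums were 6088 CPM in the deletion-labelled and 4598 CPM in the control library, and their part was not tested. In phagocytes without injury, Id1 alone of 7 was higher, at 45.7 CPM in the deletion-labelled and 28.4 CPM in the control library, where 12.3% of all genes passed, 5.58% higher and 6.7% lower. After infarction Id2 alone of 8 was lower, by a log2 ratio of -0.63 (-0.66 to -0.59), where 7.79% of all genes passed, 6.11% higher and 1.69% lower. In neutrophils after infarction, Bmpr2 and Id3 of 6 were higher, where 13.8% of all genes passed, 10.9% higher and 2.87% lower. A cluster of 126 cells in this class mixed neutrophil genes with Tmem252 and Sox17, genes of vessel lining. Without that cluster Bmpr2 no longer passed 1.5-fold. The Id3 ratio, 1.99 (1.78 to 2.21), was 0.80 (0.46 to 1.15) without it. The 12 endothelial markers in the whole neutrophil sum were 2578 CPM in the deletion-labelled and 523 CPM in the control library. The infarction comparison of deletion-labelled neutrophils had 5 of 6 genes higher and 1 lower, where 47.1% of all genes passed, 36.4% higher and 10.7% lower. It rests on 106 cells without injury.

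The wider pathway was read from lists of ligands, receptors, intracellular SMAD regulators, secreted antagonists and target genes. All 10 genes are themselves on these lists, so list counts and medians are not independent of the results above. Only the secreted antagonists hold none of them. In fibroblasts after infarction 0 of 9 receptors and co-receptors were higher, and 7 were lower in the deletion-labelled and 8 in the control pair, where 31.6% of all genes were lower in the deletion-labelled and 39.4% in the control pair. Their median log2 ratio was -0.76 in the deletion-labelled and -1.29 in the control pair, against -0.21 in the deletion-labelled and -0.29 in the control pair over all genes. The co-receptor Rgmb stood at 38.2 CPM in the deletion-labelled and 20.2 CPM in the control library after infarction, against 133 CPM in the deletion-labelled and 113 CPM in the control library without injury. Of 4 ligands tested, Gdf6 alone was higher, with log2 ratios of 1.23 in the deletion-labelled and 1.17 in the control pair. Of 10 secreted antagonists and modulators, 2 were higher and 5 lower in the deletion-labelled and 1 higher and 6 lower in the control pair, where 50.4% of all genes passed either way in the deletion-labelled and 63.3% in the control pair. Chrd, which binds BMPs outside the cell, gave -1.70 in the deletion-labelled and -3.93 in the control pair, and Chrdl1, a relative of Chrd, gave -3.47 in the deletion-labelled and -4.39 in the control pair. Fstl3, which binds activins and related ligands, gave 1.60 in the deletion-labelled and 1.51 in the control pair.

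Of 12 target genes tested in fibroblasts after infarction, 2 were higher and 4 lower in the deletion-labelled pair, where 18.8% of all genes were higher and 31.6% lower. In the control pair 5 were higher and 3 lower, where 23.8% of all genes were higher and 39.4% lower. Smad7 was among the higher ones in both pairs, and Id1, Id3 and Smad6 were among those of the control pair. Atoh8, a BMP-responsive transcription factor gene, gave 2.61 in the deletion-labelled and 2.93 in the control pair, while Tmem100, a BMP-responsive membrane protein gene best known in vessel lining, gave -2.33 in the deletion-labelled and -4.45 in the control pair. Between genotypes after infarction, Tmem100 gave 2.30 and Chrd 2.21, at 21.7 and 7.81 CPM in the deletion-labelled against 4.41 and 1.68 CPM in the control library. The median log2 ratio over the 12 target genes tested in fibroblasts between genotypes was -0.26 after infarction and 0.18 without injury, and over all genes 0.04 after infarction and -0.03 without injury. Tmem100 is among the leading genes of the adventitial-type cluster, which had no control cell after infarction. The part of this in the Tmem100 ratio was not tested. Of the E proteins that Id proteins bind, Tcf4 stood at 420 CPM in the deletion-labelled and 258 CPM in the control fibroblasts after infarction, against 1333 CPM in the deletion-labelled and 1107 CPM in the control fibroblasts without injury.

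In endothelial cells after infarction, 1 target gene was higher and 9 were lower of 11 in the deletion-labelled pair, where 19.1% of all genes were higher and 22.5% lower. In the control pair 1 was higher and 8 were lower of 10, where 24.6% of all genes were higher and 33.9% lower. Id1, Id2, Id3, Smad6 and Smad7 are themselves on the list, and Id1, Id3, Smad6 and Smad7 were above 0 in the Aqp1 and Timp4 cluster of the deletion-labelled pair. Bambi, which codes for a pseudoreceptor that dampens signalling, was the higher one, at 0.74 in the deletion-labelled and 0.95 in the control pair. Receptors were 1 higher and 5 lower of 9 in the deletion-labelled and 0 higher and 7 lower of 8 in the control pair, with the type II receptor Acvr2a at -1.23 in the deletion-labelled and -1.73 in the control pair. Tcf4 gave -1.09 in the deletion-labelled and -1.23 in the control pair.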

How the data were processed

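Single-cell RNA was measured in 4 mouse heart libraries, 1 per group. The deposited files hold UMI counts per gene and cell barcode, made by the authors with Cell Ranger 5.0.1 on mm10, per the submitters' processing notes. The 10 genes, the pathway lists and the marker lists were chosen with earlier results of these data known.

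Barcodes below 500 UMIs or 200 genes, or with a mitochondrial share above 20%, were dropped, and doublets were removed by a score from simulated pairs. Cells were clustered with Leiden on 30 components of 2000 variable genes, with the pathway genes kept out (Python 3.11.15, scikit-learn 1.9.0, leidenalg 0.10.2). Clusters were named from markers. Subtype markers were admitted when reading a cluster's leading genes after a fibroblast cluster had been left unnamed without them. Subtype names given as interstitial-type, arterial-like and so on follow the same markers.

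UMIs were summed per class and library, over at least 50 cells per class or 20 per cluster. Zero counts allow up to 3 UMIs or the upper Poisson bound. A gene was compared from 50 UMIs over both sums and counted from 1.5-fold. All 10 genes are named, and of each other pathway list the 2 highest and 2 lowest log2 ratios past that limit could be. Likeness was Pearson's correlation of log2(CPM + 10) over class sums, among genes that reach 50 CPM. The count ratios were tested on simulated data. Alternatives covered filters, doublets, scaling, thresholds, clustering and naming. The haemoglobin genes were read apart from their marker list after their values were seen, and 1 other marker of that list is not reported here.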

Additional observations from a re-analysis of the deposited data

Results flagged for a closer look

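For 7 pairs of gene and class, the log2 ratio of deletion-labelled over control had opposite signs after infarction and without injury, with both counting intervals clear of 0 and at least 1 ratio past 1.5-fold. The difference between the 2 settings was not tested in any of them, since each group was 1 library.

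In fibroblasts the Id3 ratio was -0.55 after infarction and 0.76 without injury. The Id1 ratio in fibroblasts was -0.13 after infarction and 0.89 without injury. The Bmp6 ratio in fibroblasts ran the other way round, at 0.92 after infarction and -0.17 without injury. In the Cthrc1 cluster alone after infarction, Id3 gave -0.41 (-0.44 to -0.38), Id1 0.01 (-0.10 to 0.13) and Bmp6 0.16 (-0.12 to 0.44). The makeup of the class differed between the libraries after infarction, and its part was not tested.

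In endothelial cells all 4 were higher in the deletion-labelled library after infarction and lower in it without injury. Bmpr1a gave 1.89 after infarction and -0.66 without injury, with 53 of its 63 deletion-labelled UMIs after infarction in 29 endocardial-like cells. Bmp6 gave 0.69 after infarction and -0.46 without injury, with most of its 186 deletion-labelled UMIs after infarction in the same 29 cells. Smad6 gave 0.90 after infarction and -0.19 without injury, and Smad7 gave 0.66 after infarction and -0.26 without injury. In the Apln cluster alone after infarction, Smad7 gave 0.27 (-0.07 to 0.61). Smad6 had 20 deletion-labelled and 13 control UMIs in that cluster, too few to compare. The makeup of the class moved with these ratios, and its part was not tested.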

How the results depend on the processing

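With 1 library per group, animal, library and group cannot be told apart, and low counts limit Smad6 and endothelial Bmpr1a. No paired analysis was possible because no group holds replicates. Counts of the 10 genes past 1.5-fold kept within 1.5 times of their value in 149 of 198 settings, and scaling by the median of ratios moved none. A limit of 2-fold lowered the deletion-labelled over control counts after infarction to 1 of 6 in endothelial cells, 2 of 4 in fibroblasts, 0 of 1 in phagocytes and 1 of 2 in neutrophils, and without injury to 1 of 2 in endothelial cells, 0 of 2 in fibroblasts and 0 of 1 in phagocytes. It lowered the infarction counts to 3 of 8 in deletion-labelled endothelial cells, 3 of 6 in deletion-labelled fibroblasts, 2 of 5 in deletion-labelled and 3 of 6 in control mural cells.

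In only the cluster with most cells, the genotype counts after infarction were 1 in endothelial cells, 0 in fibroblasts, 2 in phagocytes and 1 in neutrophils, those without injury 0 in endothelial and 0 in mural cells, and the deletion-labelled infarction counts 2 in endothelial and 0 in mural cells. There the deletion-labelled endothelial infarction ratios changed sign, to 0.19 for Id1, 0.51 for Id3, 0.78 for Smad6 and 0.28 for Smad7. Without doublet removal the genotype counts were 2 in phagocytes, 2 in mural cells and 5 in neutrophils after infarction, and 1 in endothelial cells, 0 in phagocytes and 0 in mural cells without injury. Deletion-labelled neutrophil infarction ratios then became -0.72 for Bmpr2, -0.14 for Id1, -1.22 for Id3 and -0.15 for Smad7.

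With at most 10% mitochondrial UMIs the genotype counts were 0 in phagocytes after infarction, and 1 in endothelial cells, 2 in phagocytes and 0 in mural cells without injury, with Id2 in mural cells at -0.10. From 10 UMIs they were 2 in phagocytes, 1 in mural cells and 6 in neutrophils after infarction. With the mean CPM per cell they were 1 in neutrophils after infarction, and 1 in endothelial cells and 0 in phagocytes without injury, and the deletion-labelled endothelial infarction count was 4. With each library clustered alone they were 3 in phagocytes and 1 in neutrophils after infarction and 2 in phagocytes without injury. At resolution 0.5 they were 1 in neutrophils after infarction and 1 in endothelial cells without injury. With the 10 genes among the variable genes they were 0 in phagocytes after infarction and 1 in endothelial cells without injury.

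For the deletion-labelled neutrophil infarction count of 6, libraries clustered alone, resolution 0.5 and leaving out mixed clusters each gave 3, with Id3 at -0.21, -0.090 and -0.14. Chosen after seeing the data were leaving out the 2 clusters of mixed genes, which gave genotype counts of 1 in neutrophils after infarction and 1 in endothelial cells without injury, and reading leading genes with class markers alone, which left the Cthrc1 cluster unnamed and gave 7 in fibroblasts after infarction. The cause of these differences was not tested. Of 1363 single log2 ratios, 70 changed sign, 12 of them past 1.5-fold as reported, which are given above, and 58 within it. Thinning to 1000 UMIs left 50 shares within their interval and moved 140.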

Other observations

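Over 30 sums of a class in a library, which share libraries and classes, 7260 genes were set against each of the 10 by Pearson's correlation of log2(CPM + 10), as a description. Bmp4 was most like Eln at 0.95, Ntn1 at 0.94 and Fbln5 at 0.94, of which Eln and Fbln5 belong to elastic fibres. Id1 was most like Cav1 at 0.93, Slc9a3r2 at 0.91 and Fabp4 at 0.91. Id3 was most like Adamts1 at 0.97, Fermt2 at 0.96 and Sparc at 0.96. Smad6 was most like Nav3 at 0.97 and Adarb1 at 0.94, and Bmp6 most like Galnt15, Fmo1 and Tek at 0.96 each, where Tek codes for the angiopoietin receptor of vessel lining. Bmp2 reached 0.85 with Plau, and Smad7 at most 0.82, with Gimap9. Among the 10 genes themselves the closest pair was Bmp6 and Smad6 at 0.81, and the farthest was Id2 and Id3 at -0.60.

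Erythroid cells formed a class sum in the deletion-labelled heart without injury alone, with 68 cells, and held 43.4 CPM of Bmp6, 432 CPM of Id1 and 557 CPM of Id3. Endothelial cells of that library held 69.5 CPM of Bmp6, 962 CPM of Id1 and 1109 CPM of Id3. The part of endothelial RNA in the erythroid sum was not tested. The endocardial-like cluster held 467 CPM of Id2 over its 80 cells, second of the 37 clusters after the cytotoxic lymphocyte cluster at 716 CPM.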
